A study of Monodelphis domestica with 7 samples.

Results

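The genes followed here, grouped as leukocyte genes by what is known of them in other mammals, were measured through the injured and uninjured opossum spinal cord. They were ALOX5AP (ENSMODG00000009265), STXBP2 (ENSMODG00000015002), PLAC8 (ENSMODG00000019309) and a gene described as SAMD9-like (ENSMODG00000024055). The study itself placed STXBP2 and SAMD9-like outside its immune and inflammatory group in the younger animals. It counted PLAC8 among the apoptosis genes in the older ones. The genes were taken by identifier as 4 of the 21314 genes counted, and all 4 were among the 13534 genes that passed the filter on low counts. Their choice rested on measured values, because each gene is in the study's own lists of genes altered 24 h after injury: ALOX5AP and STXBP2 at both ages, PLAC8 only in the list for the older animals and SAMD9-like only in the list for the younger. The changes in those contrasts are therefore given as descriptions without a test.

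The tissue was spinal cord of the gray short-tailed opossum (Monodelphis domestica), a marsupial born at a very immature stage. Pups of both sexes had the cord cut completely at thoracic level 10 on postnatal day 7 (P7) or 28 (P28), under isoflurane, and the part rostral to the cut was collected 24 h later (P7+24h and P28+24h). The matching rostral part of uninjured cords of the same age at collection, P8 and P29, served as control. No group carried a transgene or a drug treatment other than the anaesthetic. Per the methods, P8 controls came from other litters than the injured pups, while the older controls were mostly their littermates. These older controls were anaesthetised but not injured. No anaesthesia before collection is stated for the P8 controls, so the controls of the 2 ages may differ in it. Each injured group and the P8 control had 2 libraries and the P29 control had 1, each made from a pool of 2 individuals. Replicate 1 of every group came from sequencing run 1 and replicate 2 from run 2, and the samples of the runs were also collected separately, so collection and sequencing cannot be told apart. P-values measure the spread between these pooled libraries. The only P29 control was a run 1 library.

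All 4 genes have well-known counterparts in other mammals. ALOX5AP, also called FLAP, is a membrane protein that presents arachidonic acid to 5-lipoxygenase and so opens the pathway to leukotrienes, lipid signals that attract and activate leukocytes. STXBP2, or Munc18-2, binds syntaxins and takes part in the release of granules from cytotoxic lymphocytes, mast cells and neutrophils. PLAC8 is a small cysteine-rich protein abundant in myeloid and lymphoid cells, and SAMD9 and SAMD9L are large cytoplasmic proteins that interferons induce and that restrict some viruses. After a spinal injury, resident microglia and arriving neutrophils, monocytes and macrophages are the main leukocytes of the cord.

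The library totals ranged from 3332232 to 6256074 counts, and every run 2 library was deeper than every run 1 library. Levels are given as CPM, the count of a gene scaled to the size of its library, here after TMM adjustment. A floor of 3 counts corresponded to 0.449 to 1.06 CPM, depending on the library, and intervals and floors cover counting error only. As CPM takes no account of gene length, levels were compared between libraries and never between genes. In bulk tissue, more cells of a type and more RNA per cell cannot be told apart. Strand is not named in the counting that made the files, and reads that fit a near copy equally well, such as another SAMD9-like gene, may be missing from a gene or shared with it.

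ALOX5AP was close to the floor in the young uninjured cord and highest in the older injured cord. In the P8 controls of runs 1 and 2 there were 3 and 5 reads, or 0.743 and 0.824 CPM. The P7+24h injured cords had 17 and 22 reads, or 4.46 and 3.29 CPM. The P29 control had 7 reads, or 2.01 CPM, and the P28+24h injured cords had 25 and 36 reads, or 8.83 and 5.84 CPM. Both injured libraries were thus above their age-matched controls at each age. From the lowest, the order was P8 control, then P29 control, then the cords injured at P7 and last those injured at P28, but the 95% counting interval of the P29 control, 0.809 to 4.14 CPM, took in the level of the run 2 library at P7+24h and part of both P8 intervals.

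The levels of STXBP2 were lowest in the P8 controls, followed by the injured cords at P7+24h, the uninjured P29 cord and the injured cords at P28+24h. The P8 controls had 19 and 14 reads, or 4.7 and 2.31 CPM. In the P7+24h injured cords there were 40 and 50 reads, or 10.5 and 7.48 CPM. The uninjured P29 cord, with 60 reads or 17.2 CPM, was above both of these. The P28+24h injured cords of runs 1 and 2 lay far apart, at 125 and 118 reads or 44.1 and 19.1 CPM. The lower of these was inside the counting interval of the P29 control, 13.2 to 22.2 CPM, whereas the higher was well outside it.

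PLAC8 had the same order of groups. The P8 controls had 9 and 7 reads, or 2.23 and 1.15 CPM, and the P7+24h injured cords 22 and 23 reads, or 5.78 and 3.44 CPM. The P29 control had 25 reads, or 7.18 CPM, while the cords injured at P28 had 61 and 81 reads, or 21.5 and 13.1 CPM. No 2 groups overlapped, but the P29 control and the P7+24h injured cords were neighbours that counting error does not separate, since the interval of the P29 control was 4.65 to 10.6 CPM and that of the P7+24h injured cord of run 1 was 3.62 to 8.75 CPM.

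SAMD9-like followed another course. The P8 controls were the lowest, with 3 and 8 reads or 0.743 and 1.32 CPM. The P7+24h injured cords had 7 and 42 reads, or 1.84 and 6.28 CPM, so nearly all of the reads in that group came from run 2. The P29 control had 18 reads, or 5.17 CPM, and the P28+24h injured cords had 10 and 41 reads, or 3.53 and 6.65 CPM. The injured cords of both ages and the P29 control all overlapped, and only the P8 controls stood below every other library.

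**Figure D1:**
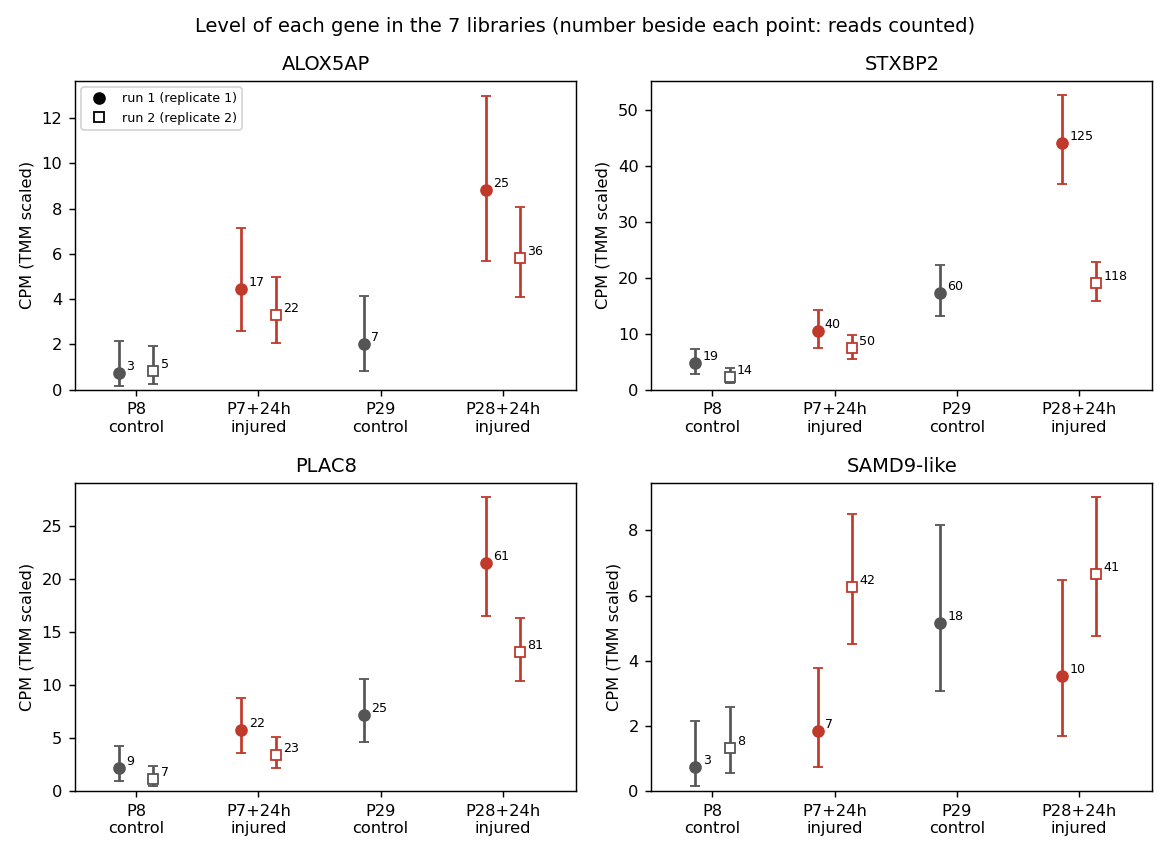
Level of each gene in CPM (vertical axis, from 0) in the 4 groups (horizontal axis), with controls in gray, injured cords in red, run 1 as filled circles, run 2 as open squares, 95% counting intervals as bars and the number of reads beside each point. ALOX5AP, STXBP2 and PLAC8 are highest in the P28+24h injured cords, with run 1 above run 2, whereas SAMD9-like overlaps between all groups but the P8 controls.

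The change with injury was then followed within each run, on a log2 scale with a prior count of 2, and set beside the same change in all 13534 genes. After injury at P7, ALOX5AP was higher by 2.07 on this scale in run 1 and 1.57 in run 2, above the change of 99.8% and 99.5% of the genes. The ratio of its CPM values was 6.01 (95% counting interval 1.74 to 32) in run 1 and 3.99 (1.48 to 13.5) in run 2. STXBP2 was higher by 1.09 and 1.53, with ratios of 2.23 (1.26 to 4.08) and 3.24 (1.76 to 6.35). These values describe the contrast that chose both genes.

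For SAMD9-like, also listed at this age, the runs differed. Its log2 change after injury at P7 was 0.96 in run 1, where the ratio of 2.48 had a counting interval of 0.565 to 14.8, and 1.94 in run 2, where the ratio was 4.76 (2.21 to 11.7). Without the run 2 library of the P7+24h injured cords, the fitted change of SAMD9-like fell from 1.96 to 0.78. The value at this age thus leaned on 1 library.

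PLAC8 was not chosen at P7. The study's own test on these libraries had not listed it there, so a missing call in the same libraries is no independent result. It was higher after injury by 1.23 in run 1, with a ratio of 2.59 (1.15 to 6.4), and by 1.29 in run 2, with a ratio of 2.98 (1.24 to 8.23). Over the whole table edgeR's quasi-likelihood test gave a log2 fold change of 1.45 ± 0.57 (SE; 2 libraries against 2) with an unadjusted p of 0.0426 and an adjusted p of 1. With the run as a block the log2 fold change was 1.45 ± 0.39 and the adjusted p again 1, and with a likelihood ratio test and the block it was 0.184. These fits called 0.0148% and 0.266% of all genes as raised. The higher level seen in both runs therefore did not pass the test. Genes were called where the adjusted p was below 0.05 and the change at least 2-fold. In this comparison the test called 0 genes, 0% of those tested, while 69 had an unadjusted p under 0.05, edgeR's exact test called 6 genes and DESeq2 called 2.

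The 2 injured libraries were above the 2 controls at P7 for all 4 genes. A rise of this kind was seen in 8.55% of all genes, and since 3 of the 4 genes were chosen on this contrast nothing is read from their count.

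After injury at P28, within run 1, ALOX5AP was higher by 1.93 on the log2 scale, with a ratio of 4.39 (1.85 to 12). STXBP2 was higher by 1.34, with a ratio of 2.56 (1.87 to 3.54), and PLAC8 by 1.53, with a ratio of 3 (1.85 to 4.99). These 3 changes lay above those of 98.8%, 96.7% and 97.6% of the genes. When the run 2 injured library was set against the same run 1 control, the differences were smaller, 1.36 for ALOX5AP, 0.15 for STXBP2 and 0.83 for PLAC8, and that of STXBP2 was above only 59.1% of the genes. In that pair the injury and the run differ together and cannot be told apart. All 3 genes were listed at this age, so these are descriptions. Both injured libraries were above the control for these 3 genes and not for SAMD9-like, beside 22.2% of all genes, and nothing is read from that count.

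SAMD9-like was not chosen at P28, and as the study had not listed it in these same libraries, the lack of a call there was known beforehand. In run 1 it was lower in the injured cord by a log2 change of -0.50, with a ratio of 0.683 (0.282 to 1.56), and the run 2 injured library was above the run 1 control by 0.34, with a ratio of 1.29 (0.722 to 2.38). The quasi-likelihood test gave a log2 fold change of 0.01 ± 0.85 (SE; 2 libraries against 1) and an adjusted p of 1. With the run as a block the sign turned, to -0.78 ± 0.56 with an adjusted p of 0.529. The test called 0 genes, 0% of all tested, in this comparison, with 157 genes at an unadjusted p under 0.05, 1 called by the exact test and 0 by DESeq2, and with the block 0.584% of the genes were called as raised and 0.17% as lowered. Whether the response of SAMD9-like differed between the ages was not tested, because it was chosen on the P7 contrast.

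**Figure D2:**
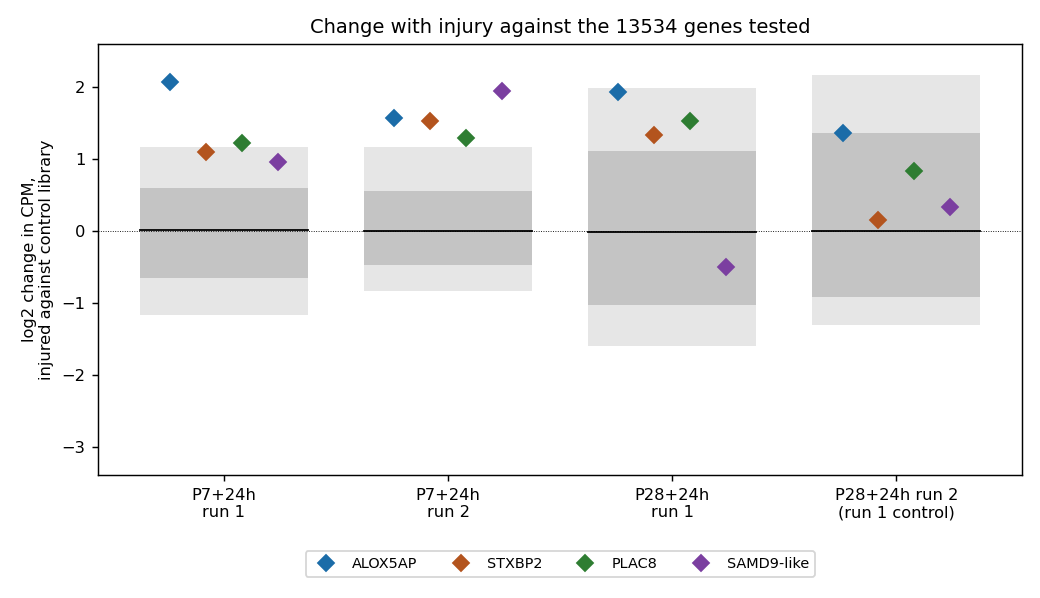
Log2 change of CPM between an injured and a control library (vertical axis) for the 4 genes (diamonds) in the 4 pairs of libraries (horizontal axis), with the range of the middle 90% and 98% of the 13534 genes tested as dark and light gray bars and their median as a line. At P7+24h all 4 genes lie above the dark bar in both runs, while at P28+24h SAMD9-like lies within it in run 1 and all 4 lie within it in the pair with the run 2 injured library, ALOX5AP at its upper edge.

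The levels also differed with age in cords that had not been injured. The injury contrasts chose the genes and this one did not, but it uses the same control libraries. SAMD9-like was chosen for a low level in the P8 controls alone, which favours a difference here, so its age difference is given as a description. For PLAC8 the choice favoured a low P29 control, and for ALOX5AP and STXBP2 low controls at both ages. Within run 1, the P29 control was above the P8 control by 2.26 for SAMD9-like on the log2 scale, with a ratio of 6.96 (2.03 to 36.9), by 1.78 for STXBP2, with a ratio of 3.67 (2.16 to 6.5), by 1.52 for PLAC8, with a ratio of 3.22 (1.46 to 7.85), and by 1.06 for ALOX5AP, with a ratio of 2.71 (0.618 to 16.2). The single P29 library lay above both P8 libraries for all 4 genes, as it did for 40.4% of all genes.

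Without the run in the model, ALOX5AP, STXBP2 and PLAC8 did not pass the quasi-likelihood test for this difference (adjusted p of 0.361, 0.15 and 0.17), in a comparison where 1.71% of all genes were called as higher at P29. With the run as a block, STXBP2 and PLAC8 were called, beside 12.5% of all genes. The log2 fold change was then 1.91 ± 0.37 (SE) for STXBP2 with an adjusted p of 0.00347, and 1.76 ± 0.47 for PLAC8 with an adjusted p of 0.0172. ALOX5AP, at 1.06 ± 0.76 and an adjusted p of 0.321, was not called. For SAMD9-like the fitted log2 fold change was 2.26 ± 0.90 without the block and 3.07 ± 0.65 with it. With a likelihood ratio test the blocked fit again called STXBP2 and PLAC8, beside 13.6% of all genes. The exact test on the compared groups, without the run, called STXBP2 with an adjusted p of 0.0325 and not PLAC8, while ALOX5AP had too few reads for its filter, beside 5.65% of all genes. In the blocked fit the call of STXBP2 held when each of the 6 replicated libraries was left out. That of PLAC8 was lost without P8 control replicate 1, where the adjusted p was 0.0831. These tests compare 1 library with 2, and in the blocked fit the run has the same effect in young and older cords.

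Between the injured cords of the 2 ages, both runs could be compared. The P28+24h cords were above the P7+24h cords of the same run by 2.03 and 1.31 on the log2 scale for STXBP2, by 1.82 and 1.81 for PLAC8, by 0.92 and 0.75 for ALOX5AP and by 0.81 and 0.08 for SAMD9-like. The injured groups did not overlap for the first 3 genes, which was so for 25.1% of all genes, and overlapped for SAMD9-like. These injured libraries are also part of the contrasts that chose the genes. PLAC8 was chosen for a high level in the P28+24h injured cords alone, so its difference is given as a description. For SAMD9-like the choice favoured high P7+24h cords, and for ALOX5AP and STXBP2 high injured cords at both ages.

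The test without the block called none of STXBP2, ALOX5AP and SAMD9-like (adjusted p of 0.148, 0.329 and 0.826), with 2.26% of all genes called as higher at P28+24h. The blocked fit called STXBP2, at a log2 fold change of 1.70 ± 0.25 (SE) and an adjusted p of 0.000372, where 13.8% of all genes were called as higher. This call held when each replicated library was left out and with a likelihood ratio test, which called 14.8% of all genes as higher. The exact test without the run did not call STXBP2 (adjusted p of 0.0649), beside 5.48% of all genes called as higher. For PLAC8 the fitted log2 fold change was 1.92 ± 0.52 without the block and 1.91 ± 0.28 with it. ALOX5AP, at 0.89 ± 0.35 with an adjusted p of 0.0637, and SAMD9-like, at 0.30 ± 0.38 with an adjusted p of 0.548, were not called.

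**Figure D3:**
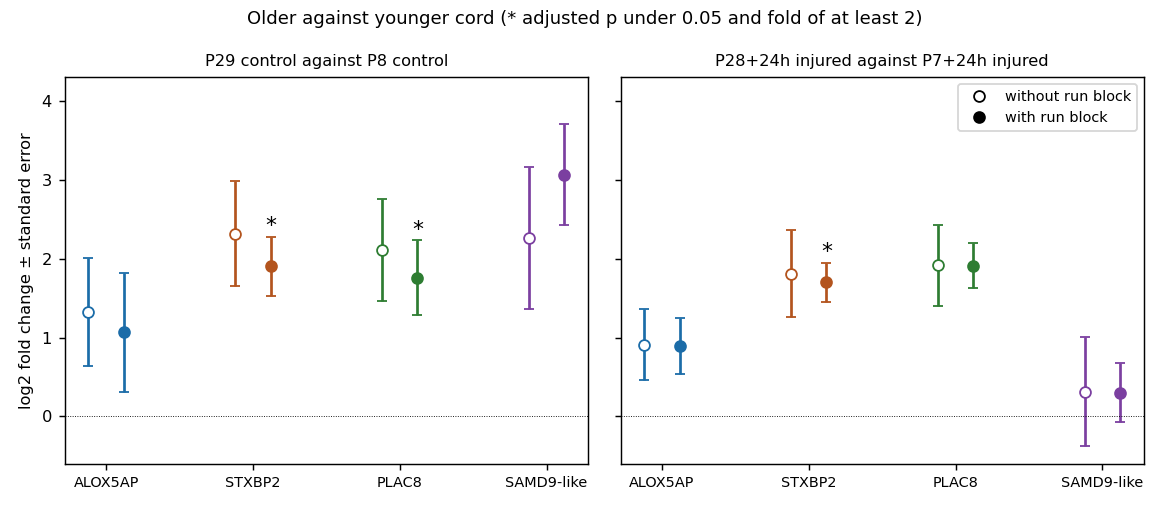
Log2 fold change with its standard error (vertical axis) of each gene (horizontal axis) for the older against the younger cord, uninjured on the left and injured on the right, fitted without (open) and with (filled) the run as a block, with calls starred except where the choice of the gene favoured the difference (SAMD9-like on the left, PLAC8 on the right). No open point is starred, while the filled points of STXBP2 are starred in both panels and that of PLAC8 on the left.

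The genes also differed in how they moved with the run. From run 1 to run 2, STXBP2 differed by -0.91 on the log2 scale in the P8 controls, -0.47 in the P7+24h injured and -1.19 in the P28+24h injured cords. For PLAC8 the differences were -0.75, -0.68 and -0.70, and for ALOX5AP 0.10, -0.40 and -0.56. SAMD9-like moved the other way, by 0.58, 1.57 and 0.84. Markers of red cells and platelets moved with the run too, mostly through 1 globin gene, HBB-like, which made up 22600 of 23300 CPM in the P28+24h injured cord of run 1. Over the 10 genes at hand the summed level was 2420, 2370 and 5430 CPM in the run 2 libraries and 9700 to 23300 CPM in the 4 run 1 libraries, a log2 difference of -2.64, -2.03 and -2.10 in the same 3 groups. VWF, a gene of platelets and vessels in the same list, moved the other way in both injured groups, from 11.3 to 14.2 CPM at P7+24h and from 48 to 68.3 CPM at P28+24h. STXBP2, PLAC8 and the red cell sum were each lower in run 2 than in run 1 in these 3 groups. Between injured and control cords at P7, the red cell sum was 0.645 times the control in run 1 and 0.979 times in run 2. At P28 in run 1 that sum was 2.18 times the control. The part of blood in the levels of STXBP2 and PLAC8 was not tested.

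**Figure D4:**
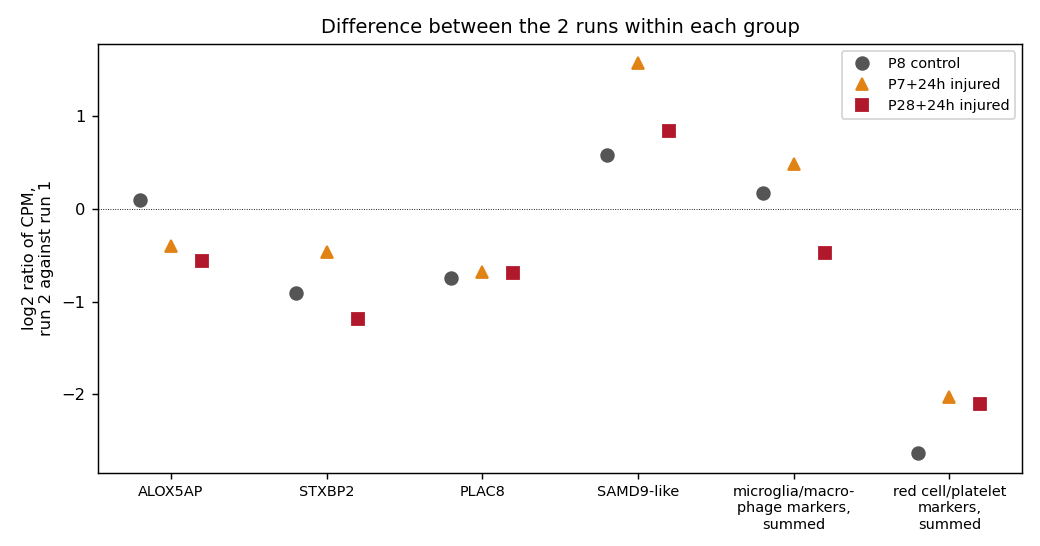
Log2 ratio of CPM in run 2 against run 1 (vertical axis) for the 4 genes and for 2 summed marker lists (horizontal axis), in the P8 controls (circles), P7+24h injured (triangles) and P28+24h injured cords (squares). STXBP2, PLAC8 and the red cell sum are below 0 in all 3 groups and SAMD9-like is above 0 in all 3.

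Like ALOX5AP, STXBP2 and PLAC8, the summed markers of microglia and macrophages were lowest in the P8 controls and highest in the P28+24h injured cords. With the run the sum moved otherwise than STXBP2 and PLAC8, which were lower in run 2 in all 3 groups. From run 1 to run 2 the sum differed by 0.17 in the P8 controls, 0.49 at P7+24h and -0.47 at P28+24h on the log2 scale. Of the 23 symbols of the list 12 had an identifier, and with MRC1-like 13 genes were at hand, among them CSF1R, TYROBP, TREM2, SPI1, CTSS and the C1q subunits, and most of these are known by name only because the study listed them as altered in these libraries. Their summed level was 36.6 and 41.2 CPM in the P8 controls, 124 and 174 CPM in the P7+24h injured cords, 154 CPM in the P29 control and, after injury at P28, 529 and 381 CPM. All 13 had a fitted change above 0 with injury at both ages, with a median of 1.90 at P7 and 1.78 at P28, beside 0.01 and 0.05 over all genes. As the naming of most of them favoured a change with injury, nothing is read from these medians. Without the block 0 of the 13 were called in any comparison. With it 6 were raised at P29 against P8, beside 12.5% of all genes, and between the injured cords 10 were raised, beside 13.8%, and 1, SIGLEC1, was lowered. The 6 general leukocyte markers at hand summed to 11.6 and 5.77 CPM in the P8 controls, 15.5 and 15.6 CPM in the P7+24h injured cords, 21.6 CPM in the P29 control and, after injury at P28, 78 and 54.3 CPM. No marker of T, NK or B cells or of mast cells was among the named identifiers, so STXBP2 could not be set beside the cell types best known for it.

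Set against the macrophage markers of the same library, the genes other than SAMD9-like differed less between the groups. ALOX5AP had 2.03 and 2 reads per 100 marker reads in the P8 controls, 3.59 and 1.89 in the P7+24h injured cords, 1.31 in the P29 control and, after injury at P28, 1.67 and 1.53. PLAC8 had 6.08 and 2.8, then 4.65 and 1.98, then 4.67, and then 4.07 and 3.45 in the same groups. STXBP2 had 12.8 and 5.6, then 8.46 and 4.3, then 11.2, and then 8.35 and 5.03, with every run 1 library above every run 2 library. Relative to these markers, neither STXBP2 nor PLAC8 was higher in an injured library than in the control of the same age and run, where there was one. The counting intervals of these pairs overlapped. For PLAC8 in run 1 they were 2.73 to 11.9 in the P8 control and 2.89 to 7.13 at P7+24h. SAMD9-like had 2.03 and 3.2 in the P8 controls, 1.48 and 3.61 in the P7+24h injured cords and 3.36 in the P29 control, and was at 0.668 (0.32 to 1.23) and 1.75 (1.25 to 2.38) in the P28+24h injured cords. The 4 genes were chosen, and most of these markers named, as altered with injury in these same libraries. That favours similar ratios in injured and control cords, so nothing is read from the likeness of the ratios. Whether macrophage number accounts for the rise of any of the genes was not tested.

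**Figure D5:**
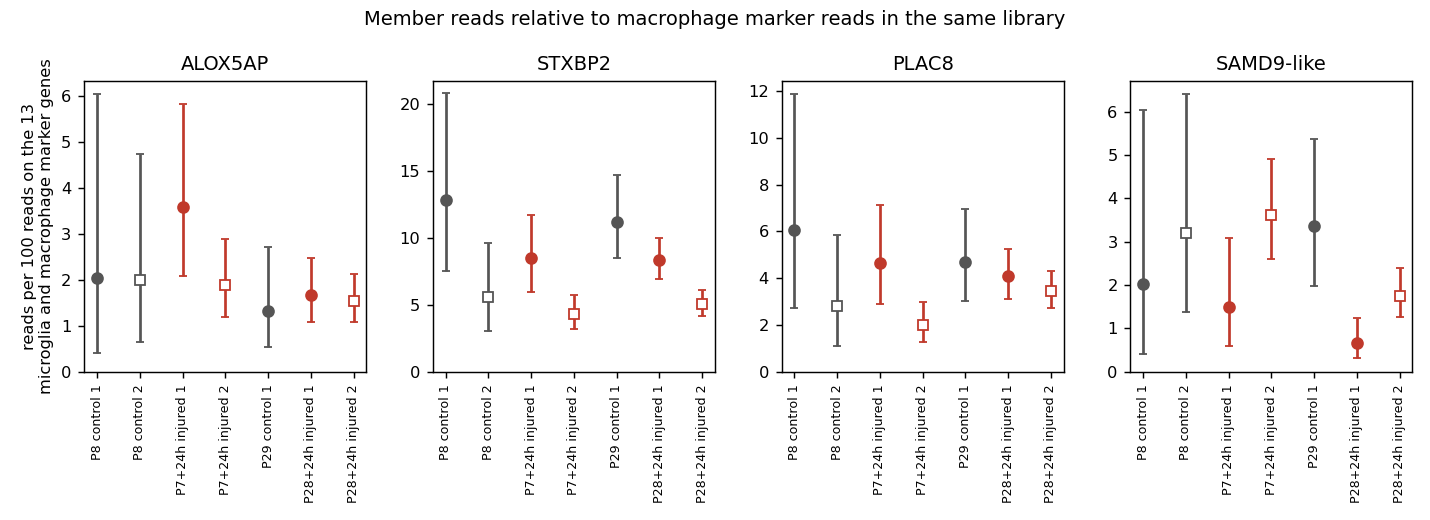
Reads of each gene per 100 reads on the 13 microglia and macrophage marker genes (vertical axes, from 0) in the 7 libraries (horizontal axes), with controls in gray, injured cords in red, run 1 filled, run 2 open and 95% counting intervals as bars. ALOX5AP stays between 1.31 and 3.59, STXBP2 is higher in run 1 than in run 2 throughout, and SAMD9-like is lowest in the P28+24h injured cord of run 1.

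Markers of other cell types also differed between the groups. Summed skeletal muscle markers (7 genes at hand) were at 8.73 to 17.3 CPM in the libraries of the other groups and at 166 and 52.4 CPM in the P28+24h injured cords. The summed oligodendrocyte markers (4 genes) were at 110 to 339 CPM in the young libraries and at 48700 to 90000 CPM in the older ones. Markers of astrocytes and radial glia (2 genes) summed to 2200 to 3710 CPM, but the 2 moved in opposite directions with age. GFAP had 256 and 672 CPM in the P8 controls and 1550 CPM in the P29 control. VIM had 2200 and 1940 CPM in the P8 controls and 647 CPM in the P29 control. Glial transcripts of the cord were thus present in every library. The part of muscle or of maturing glia in the age differences was not tested.

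The partners of the 4 genes in their pathways could be followed only in part, because identifiers are paired with names only for genes in the study's own tables, most of them chosen on these libraries. Changes and calls of these partners in the injury contrasts are therefore no independent result. Of 29 leukotriene and prostaglandin genes 2 had an identifier, LTA4H and CYSLTR1, and 2 related genes, GGT1-like and ALOX12-like, were added. The gene of 5-lipoxygenase itself, ALOX5, was not among these. LTA4H, the enzyme that makes leukotriene B4, had 23.3 and 11.7 CPM in the P8 controls, 28.4 and 13.8 in the P7+24h injured cords, 17.5 in the P29 control and, after injury at P28, 45.9 and 25.1. At P28 the blocked fit called it as raised, by 1.44 ± 0.27 (SE) with an adjusted p of 0.0399, beside 0.584% of all genes. At P7 its levels in injured and control cords overlapped. CYSLTR1, a receptor for the cysteinyl leukotrienes, was raised at P29 against P8 with the block by 1.82 ± 0.56 and an adjusted p of 0.031. GGT1-like, a relative of an enzyme that converts leukotriene C4, was raised between the injured cords by 2.12 ± 0.47 and an adjusted p of 0.00448. With the block, 12.5% of all genes were called as raised at P29 against P8 and 13.8% between the injured cords. ALOX12-like, a relative of another lipoxygenase and the most abundant of these genes, had 214 CPM in the P29 control against 32.8 and 99.2 CPM after injury at P28. At P7 it had 186 and 4.45 CPM in the controls and 241 and 44 CPM in the injured cords, and it was not called in any comparison. In the fit without the block 0 of the 4 were called in any comparison, as was 0 of the 4 with the block at P7.

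Of 26 genes of vesicle docking and granule release, SYTL1, a synaptotagmin-like protein that binds Rab27 on granules, was the only one at hand. It had 6.68 and 1.15 CPM in the P8 controls, 3.94 and 2.39 in the P7+24h injured cords, 3.45 in the P29 control and, after injury at P28, 11.3 and 2.76. It was not called in any comparison and, unlike STXBP2, its injured and control levels overlapped at both ages. At P28 the overlap came from the run 2 injured library set against the run 1 control. The fitted log2 change of SYTL1 at P28 was 0.97 without the block and 1.59 with it, against 0.86 and 1.22 for STXBP2.

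The interferon-induced genes, the group to which SAMD9 and SAMD9L belong, had 5 of 45 symbols with an identifier, and with IFIT1B-like, GBP1-like and GBP4-like 8 genes were at hand. All 8 had a fitted change above 0 after injury at P7, with a median of 1.17 on the log2 scale beside 0.01 over all genes, and 0 were called by the quasi-likelihood test with or without the block. The blocked fit with a likelihood ratio test called 3 of them as raised, beside 0.266% of all genes. As the naming of these genes favoured a change with injury, nothing is read from the median or these calls. ISG15, a ubiquitin-like protein, had 10.9 and 3.13 CPM in the P8 controls and 19.2 and 14.4 CPM in the P7+24h injured cords. IFI6, a mitochondrial protein, had 15.8 and 7.25 CPM in the P8 controls, 32.6 and 40.2 in the P7+24h injured cords, 107 in the P29 control and, after injury at P28, 166 and 58. IFI6 was called with the block at P29 against P8, at 2.91 ± 0.44 (SE) with an adjusted p of 0.000709, and between the injured cords, at 1.38 ± 0.33 with an adjusted p of 0.00703.

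PSMB10, a subunit of the immunoproteasome, was raised at P28 with the block by 2.66 ± 0.43 (SE) with an adjusted p of 0.0298, from 7.18 CPM in the P29 control to 49.4 and 17.8. Another gene of the list was called as lowered in that comparison, so the list did not move one way. The blocked fit called 0.584% of all genes as raised there and 0.17% as lowered. As the naming of these genes rests largely on the same libraries, such calls are no independent result. GBP4-like, a guanylate-binding protein, had at most 1 read in each P8 and P7+24h library, 6 in the P29 control and, after injury at P28, 32 and 78. It was the 1 gene of the list called without the block, between the injured cords, with an adjusted p of 0.0296. With the block 4 of the 8 were called as raised between the injured cords (PSMB10, IFI6, GBP1-like and GBP4-like), beside 13.8% of all genes, and 4 at P29 against P8, beside 12.5%, among them PSMB10, IFI6 and GBP4-like.

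Of 36 genes of the PLAC8 family and of granulocytes and monocytes, 4 were at hand. ITGB2, the beta chain of the leukocyte integrins, had 3.22 and 5.27 CPM in the P8 controls, 6.3 and 16.3 in the P7+24h injured cords, 6.61 in the P29 control and, after injury at P28, 13.1 and 37. It was called with the block in both age comparisons, at 1.43 ± 0.45 (SE) with an adjusted p of 0.0342 in the uninjured cords. Those fits called 12.5% of all genes as raised in the uninjured cords and 13.8% between the injured cords. The neutrophil genes were less regular across the groups and runs. S100A8, a subunit of calprotectin, had 19 and 5 reads in the P8 controls, 33 and 10 in the P7+24h injured cords, 4 in the P29 control and, after injury at P28, 19 and 33, and its partner S100A9 had 31 and 0, 49 and 11, 12, and 24 and 33. CSF3R, the receptor for granulocyte colony-stimulating factor, had 19 and 17, 17 and 24, 3, and 6 and 46. None of these 3 was called by the quasi-likelihood test with or without the block, and none shared the order of groups of PLAC8. In CPM, S100A8 and S100A9 were higher in the injured cord of every same-run pair. CSF3R was slightly lower after injury at P7 in run 1, at 4.46 against 4.7 CPM, and higher in the other same-run pairs. All 4 genes had a fitted change above 0 with injury at both ages, with a median of 0.91 at P7 and 2.14 at P28. As their naming favoured such a change, nothing is read from these medians.

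Among the 11301 genes that passed the filter with a mean of at least 5 CPM, PLAC8 and STXBP2 had the profiles nearest to each other. Likeness was the root mean square difference of log2 CPM over the 7 libraries after centring each gene, and for this pair it was 0.204. The next named genes were SOD3, an extracellular superoxide dismutase, at 0.261 from PLAC8 and CEBPD, a transcription factor of the acute-phase response, at 0.294 from PLAC8, and a gene similar to SP100 and SP140 at 0.311 from STXBP2. When the values were centred within each run, the pair was 0.173 apart and each was among the 3 nearest genes of the other.

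The gene nearest to ALOX5AP was FCER1G, the signalling chain of Fc receptors, at 0.319. MYOF, a membrane repair protein, followed at 0.414, then VSIG4, a complement receptor of macrophages, at 0.441 and CTSS, a lysosomal protease, at 0.446. An unnamed gene at 0.451 from ALOX5AP was also near PLAC8 (0.22) and STXBP2 (0.246). The distance of ALOX5AP to PLAC8 was 0.55 and to STXBP2 0.635. Centred within each run, these distances were 0.462 and 0.49. FCER1G was then about as near to PLAC8 (0.313) and STXBP2 (0.314) as to ALOX5AP (0.311). FCER1G had 1.24 and 0.659 CPM in the P8 controls, 3.94 and 4.34 in the P7+24h injured cords, 3.16 in the P29 control and, after injury at P28, 13.4 and 8.59. SAMD9-like stood apart from the other 3, at 0.858 to 1.003, and its 5 nearest genes, at 0.368 to 0.467, have no name in the tables used. Of the marker and partner genes at hand, the astrocyte marker GFAP was nearest to it, at 0.496 with 7 genes nearer. ITGB2 followed at 0.58, and the nearest marker of microglia and macrophages, C1QA, was at 0.73.

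In a RefSeq gene table of another assembly, mMonDom1.pri, matched by symbol, ALOX5AP lies between USPL1 and MEDAG, STXBP2 between PCP2 and RETN, and PLAC8 between COPS4 and COQ2, with 0 overlapping genes in each case. SAMD9-like had no match there.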

How the data were processed

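RNA of the rostral spinal cord was sequenced in 7 libraries. The labels give an RNA integrity number close to 2 for the samples kept, while the study's methods give a high one, and which holds could not be settled from the counts. From trimmed reads aligned by Bowtie2 to the opossum genome of Ensembl, the authors obtained per-gene counts with HTSeq (union counting, nuclear genes). The deposited table holds these whole-number counts for 21314 genes, not normalized. The submitters' processing notes name edgeR 2.6.12. Library totals were 3332232 to 6256074 counts, and a gene at 3 counts is at the floor used here.

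The counts of 13534 genes that passed filterByExpr (minimum count 10) were scaled by TMM and tested with edgeR 4.0.16 (R 4.3.3) by the quasi-likelihood test. All 4 groups shared a model, and p-values were adjusted over all genes tested by Benjamini-Hochberg. Genes were called where the adjusted p was below 0.05 and the change at least 2-fold. The standard error is the log2 fold change divided by the root of its test statistic. Log2 CPM used a prior count of 2, and counting intervals are exact at 95%. As the run number of the labels marks shared collection and sequencing, a fit with it as a block was set beside the first. The differences between the runs correlated across the 13534 genes, which are not independent, at 0.80 for P8 control and P7+24h injured, 0.70 for P8 control and P28+24h injured and 0.74 for both injured groups. Other alternatives were edgeR's exact test on the compared groups (the test of the study's methods), DESeq2 1.42.0, RLE factors, library size only, other filters on low counts, no fold threshold, the block with a likelihood ratio test, and leaving out each library but the single P29 control.

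The 4 genes and the lists were chosen with earlier results of these data known. The genes named were these 4, for each the 5 with the nearest profile, and from each pathway list those called in a fit, the 3 most abundant, and set partners such as LTA4H, ISG15 and S100A8. Genes chosen otherwise are FCER1G by level and the marker genes. Names came from the study's supplementary tables, which pair 782 identifiers with a name, and 0 identifiers were found in the RefSeq table. Of the symbols of a list, 0% to 53.3% could be matched to an identifier, which is below the 80% required, so no list was tested as a set. Those on neurons (0 genes at hand) and on endothelium and meninges (1 gene) gave no value used. The authors' own fold changes and p-values were not used. No sequence is given, and some results are not reported here.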

Additional observations from a re-analysis of the deposited data

How the results depend on the processing

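In the age comparisons of the 4 genes, none passed the limits without the run in the model, except by edgeR's exact test STXBP2 at P29 against P8 (2.32, adjusted p 0.0325) and PLAC8 between the injured cords (1.92). With the replicate block 5 values did: at P29 against P8 STXBP2 at 1.91, PLAC8 at 1.76 and SAMD9-like at 3.07, and between the injured cords STXBP2 at 1.70 and PLAC8 at 1.91. Those of SAMD9-like and of PLAC8 between the injured cords are descriptions, since the choice of the genes favoured them. With the block and a likelihood ratio test these were 1.91, 1.76, 3.07, 1.70 and 1.91, and no other value of the age comparisons passed. In the injury contrasts that chose the genes, the likelihood ratio test with the block also put ALOX5AP, STXBP2 and SAMD9-like at P7 and ALOX5AP, STXBP2 and PLAC8 at P28 past the limits, which is no independent result. SAMD9-like at P28 turned from 0.0102 to -0.0105 with DESeq2, -0.78 with the block and -0.79 with the block and a likelihood ratio test. The cause of these turns was not tested.

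The count of all genes called differed between the settings. At P7 it was 0 without the block, 2 with it, 36 with it and a likelihood ratio test, 6 by the exact test and 2 by DESeq2. At P28 these were 0, 102, 493, 1 and 0. At P29 against P8 they were 242, 2893, 3242, 1074 and 862, and 138 with library size only. Between the injured cords they were 380, 3064, 3274, 935 and 1019, and 229 with library size only, a scaling that moved the median of all genes to -0.33 and -0.16 in these 2 comparisons.

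Leaving out each replicated library in turn gave 0 to 0 genes called at P7 and at P28, 0 to 139 at P29 against P8 and 0 to 88 between the injured cords, and 2257 to 3468 and 2520 to 3634 with the block. Without the block the log2 fold changes at P29 against P8 ranged from 1.26 to 1.40 for ALOX5AP, 1.87 to 2.89 for STXBP2, 1.68 to 2.61 for PLAC8 and 1.95 to 2.75 for SAMD9-like. Between the injured cords they ranged from 0.60 to 1.14, 1.10 to 2.25, 1.53 to 2.31 and -0.29 to 1.49. SAMD9-like was negative there without P7+24h injured replicate 1 (-0.27) and without P28+24h injured replicate 2 (-0.29). With the block the ranges were 0.74 to 1.40, 1.81 to 2.03, 1.68 to 1.89 and 2.75 to 3.29 at P29 against P8, and 0.78 to 0.99, 1.38 to 2.04, 1.81 to 1.96 and 0.07 to 0.95 between the injured cords. PLAC8 at P7 ranged from 1.02 to 1.95 and SAMD9-like at P28 from -0.61, without P28+24h injured replicate 2, to 0.35. The fits of the block with a library left out and the profiles centred within each run were chosen after seeing the data. The P29 control could not be left out.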
